A study of Caenorhabditis elegans and Caenorhabditis briggsae and Caenorhabditis remanei with 48 samples.

Results

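The cytosolic ribosome is built from a large and a small subunit, and the genes for their proteins are named rpl- and rps- in Caenorhabditis elegans. The 46 genes described here, 26 for the large and 20 for the small subunit, are those with such a symbol among the 70 identifiers that the study listed for their weight on the first principal component of its footprint data. They are 46 of the 23502 C. elegans identifiers in the deposited mRNA and footprint values. The list was drawn from footprint levels in the same libraries and in those of the study's other species, for genes with an ortholog in each. The members were thus selected on their footprint values in these larvae. The size of their change on feeding is given below as a description, and what is set side by side is the large against the small subunit. The name table at hand holds 78 rpl- and rps- symbols, so the 46 are a part of the ribosomal protein genes, and each comparison of subunits is one of the listed members.

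The subunits carry separate tasks. The large subunit forms the peptide bonds and guides the new chain through an exit tunnel, while the small subunit binds initiation factors, scans the mRNA and reads its codons. Their proteins are made in the cytoplasm, imported into the nucleus and mounted on ribosomal RNA in the nucleolus, and a ribosome needs those of both subunits in matched numbers. In vertebrate cells, mRNAs of ribosomal proteins are stored with few ribosomes on them when nutrients are short and are loaded with ribosomes when food returns.

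Whole L1 larvae of the wild-type strain N2 were compared in 2 states. Developing larvae had been starved for 24 h after the embryos were placed in liquid medium at 20 C, and were then given E. coli HB101 as food (15 mg/mL) for 3 h. Diapause larvae were frozen after the same 24 h of starvation and got no food. Each state was assayed by mRNA-seq of poly(A) RNA and by ribosome profiling, which sequences the ribosome-protected fragments (RPF) of mRNA, with 3 libraries per state and assay, 12 in all. A fed and a starved sample of the same batch number came from 1 culture.

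The values are the authors' means over the 3 libraries of a state, of reads per coding sequence divided by a size factor per library, called signal below. An SD, values per library and numbers of reads were not analysed here, so no difference below has a replicate test or a p-value, and the depth behind each mean was not analysed here. Summed over all coding sequences, RPF signal was 9451545 in developing and 6960114 in diapause larvae, and mRNA signal was 14855548 in developing and 13491955 in diapause larvae. These sums depend on the size factors and do not measure total translation or total mRNA. The paper states that overall translation is substantially lower in diapause and that its measurements are relative. Every change in RPF, mRNA or their ratio below is thus relative to the other transcripts of the same assay, not an amount per larva. All 46 members were well expressed, meaning a mean signal of at least 50 in both assays, as were 12115 identifiers in all. The lowest signal of any member was 654, which would carry a counting error of 2.26% if its size factors were near 1.

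The scatter between libraries can be read from a further column, the observed variance between the 3 libraries of a state over the variance fitted at that signal level. For RPF in developing larvae this variance ratio had a median of 1.94 over the large and 1.52 over the small subunit genes. It was above 1 for 21 of 26 large and 15 of 20 small subunit genes, against a background of 19.7% of well-expressed transcripts. Among the 96 other well-expressed transcripts with at least the lowest member's RPF signal in developing larvae, 47 were above 1 and the median was 0.969. In diapause larvae the RPF variance ratio had a median of 0.041 for the large and 0.035 for the small subunit, and no member was above 1, against 18.7% in the background. Among the 2152 other well-expressed transcripts with at least the lowest member's RPF signal in diapause larvae, 558 were above 1 and the median was 0.383. The developing libraries thus differed more from one another in these footprints, relative to the fit, than the diapause libraries did, for both subunits. For mRNA in developing larvae, 8 of 26 large and 6 of 20 small subunit genes were above 1, with a background of 19.6%, and 26 of 83 other transcripts with at least the lowest member's mRNA signal were. In diapause larvae none was, with a background of 19.4%, and 42 of 204 such other transcripts were. The part of this scatter in the differences between states was not tested.

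In mRNA, genes of both subunits had about 2-fold more signal in developing than in diapause larvae, and the small subunit genes were a little higher in this change. The median change, as log2 of developing over diapause, was 1.00 over the 26 large subunit genes (0.44 to 1.41, SD over genes 0.24) and 1.10 over the 20 small subunit genes (0.80 to 1.43, SD 0.17). Over all well-expressed transcripts it was 0.04. These are whole larvae, in which more cells of a type and more RNA per cell cannot be told apart. The medians differed by -0.10, large minus small, which is less than the SD between genes of either subunit. Of the large subunit genes, 8 of 26 lay above the small subunit median, and of the small subunit genes, 13 of 20 lay above the large subunit median. Both ranges reached about the same height, but 6 large subunit genes lay below every small subunit gene.

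These 6 were rpl-3, rpl-4, rpl-12, rpl-7, rpl-5 and rpl-2. The lowest was rpl-3 (CE05598), whose product lies next to the peptidyl transferase centre, with an mRNA signal of 66258 in developing and 48897 in diapause larvae, 1.36-fold higher in developing larvae. rpl-4 (CE07669), whose product lines the exit tunnel, had an mRNA signal of 48225 in developing and 33492 in diapause larvae, 1.44-fold higher. rpl-12 (CE17986), for a protein at the base of the stalk that recruits elongation factors, had 26817 in developing and 17276 in diapause larvae, 1.55-fold higher. The 3 genes with the lowest mRNA change of the large subunit therefore serve 3 separate sites of it. Next came rpl-7 (CE11024) with an mRNA signal of 42368 in developing and 26157 in diapause larvae, rpl-5 (CE02255), for a partner of the 5S ribosomal RNA, with 42158 in developing and 24352 in diapause larvae, and rpl-2 (CE18478) with 49619.9 in developing and 28584 in diapause larvae. The log2 changes of rpl-5 (0.792) and rpl-2 (0.796) were just below that of rps-0 (0.804), the lowest of the small subunit. Without values per library, the error of so narrow a margin is not known.

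At the other end of the large subunit, rpl-38 (CE20485) had an mRNA signal of 27815 in developing and 10439 in diapause larvae, 2.66-fold higher in developing larvae. In mice, the RPL38 protein is known for its part in the translation of Hox mRNAs. rpl-28 (CE06313) had an mRNA signal of 19290.1 in developing and 7601 in diapause larvae, 2.54-fold higher, and rpl-23 (CE00778), whose product lies on the face that meets the small subunit, had 44789 in developing and 18592 in diapause larvae, 2.41-fold higher. The RPF signal of rpl-38 was 13176 in developing and 940.3 in diapause larvae, and that of rpl-28 was 10919 in developing and 901 in diapause larvae. The remaining 17 large subunit genes lay between these groups of 6 and 3.

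In the small subunit the highest mRNA change was that of rps-25 (CE04691), for a protein of the subunit's head that in yeast and human cells is needed by some viral internal ribosome entry sites. Its mRNA signal was 60380 in developing and 22333 in diapause larvae, 2.70-fold higher in developing larvae. rps-12 (CE26896), also of the head, had 33589.8 in developing and 13181 in diapause larvae, 2.55-fold higher, and rps-23 (CE05747), for a protein of the decoding centre, had 57013 in developing and 22930.3 in diapause larvae, 2.49-fold higher. The lowest were rps-0 (CE00854) and rps-1 (CE00664), both for proteins near the mRNA exit. The mRNA signal of rps-0 was 42398 in developing and 24283 in diapause larvae, 1.75-fold higher, and that of rps-1 was 48279.6 in developing and 26899.9 in diapause larvae, 1.79-fold higher. For rps-1 the RPF signal was 26699.9 in developing and 2400.3 in diapause larvae. rps-4 (CE24278) followed with an mRNA signal of 40258 in developing and 21354 in diapause larvae, 1.89-fold higher.

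Counted at a limit of 2-fold, 13 of 26 large and 14 of 20 small subunit genes had more mRNA in developing larvae, against a background of 14.3% of well-expressed transcripts, and no member had more than 2-fold higher mRNA in diapause larvae, against 9.58%. The members were chosen on footprint values, and RPF and mRNA change went together over all well-expressed transcripts (Pearson's r = 0.89). Nothing is therefore read from these counts against the background. The limit runs through the middle of the members. Just below it were rpl-17 (1.995-fold), rps-9 (1.97-fold) and rps-5 (1.96-fold), and just above it were rps-8 (2.0004-fold), rpl-35 (2.01-fold) and rps-7 (2.02-fold). At 1.5-fold, 24 of 26 large and 20 of 20 small subunit genes passed. The small subunit had the larger share of its genes past both limits, and at 4-fold the count was 0 in each subunit.

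**Figure D1:**
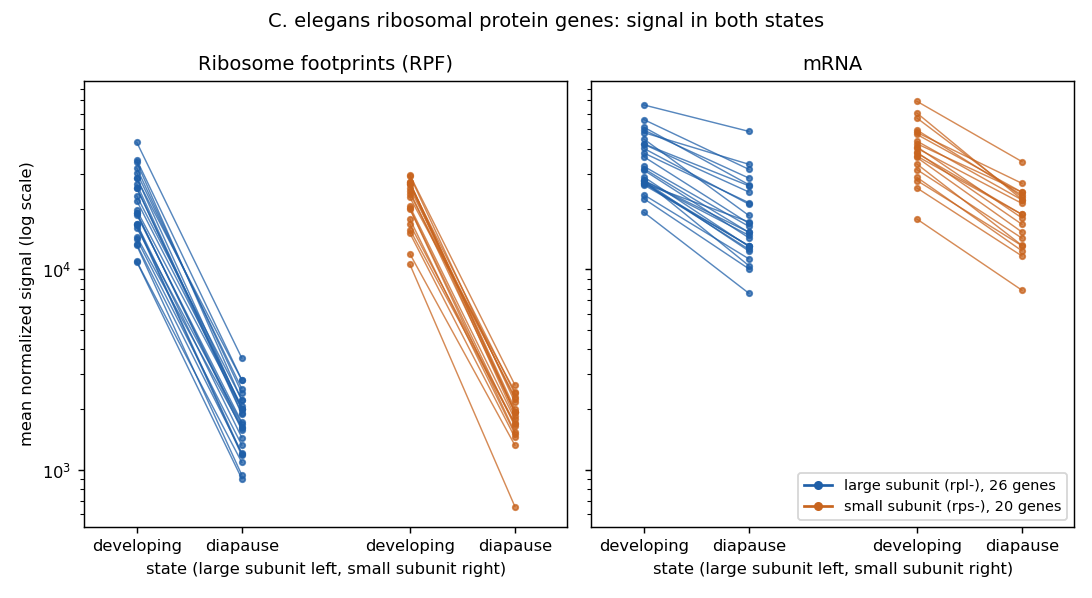
Mean normalized signal of each ribosomal protein gene, on a log axis, in developing and diapause larvae, for RPF on the left and mRNA on the right. Each line joins the values of 1 gene, with the 26 large subunit genes in blue and the 20 small subunit genes in orange. RPF lines drop by about the same amount in both subunits, with medians of 11.97-fold (large) and 11.7-fold (small), while mRNA lines are shallower and, in the large subunit, fan out in diapause.

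Footprints differed far more between the states than mRNA, and by nearly the same amount for both subunits. The median RPF change on the log2 scale was 3.58 for the large subunit (3.18 to 3.95, SD over genes 0.21) and 3.55 for the small subunit (3.18 to 4.02, SD 0.23), or 11.97-fold and 11.7-fold, beside a median of 0.01 over all well-expressed transcripts. The medians differed by 0.03, large minus small. All 26 large and 20 small subunit genes had over 2-fold more RPF in developing larvae, where 19.6% of well-expressed transcripts did, and 23 of 26 and 16 of 20 had over 10-fold more, where 2.18% did. No member had over 2-fold more RPF in diapause larvae, where 15% did. The rule that chose the members used footprint levels in both states, so nothing is read from these counts against the background.

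Within the large subunit, rpl-2 (CE18478) had the highest RPF change. Its RPF signal was 34327 in developing and 2217 in diapause larvae, 15.5-fold higher in developing larvae. It was followed by rpl-6 (CE00744), with 28687 in developing and 2008 in diapause larvae, 14.3-fold higher, and rpl-34 (CE26911), with 16582 in developing and 1178 in diapause larvae, 14.1-fold higher. The mRNA signal of rpl-6 was 40206 in developing and 21169 in diapause larvae, and that of rpl-34 was 22547 in developing and 10069.8 in diapause larvae. At the low end of the subunit, the footprints were still several-fold higher in developing larvae. rpl-36 (CE30781) had an RPF signal of 14589 in developing and 1614 in diapause larvae, 9.04-fold higher, rpl-43 (CE22117) had 16130.1 in developing and 1695 in diapause larvae, 9.52-fold higher, and rpl-12 had 19762 in developing and 2016 in diapause larvae, 9.80-fold higher. Of these 6 genes, rpl-12 was also among the lowest in mRNA change, whereas rpl-2, at the top in RPF change, was among the 6 large subunit genes below the whole small subunit in mRNA change, though by a narrow margin.

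Within the small subunit, rps-12 had the highest RPF change of all 46 genes, with an RPF signal of 10596 in developing and 654 in diapause larvae, 16.2-fold higher in developing larvae. Next came rps-23, with 26592 in developing and 1843 in diapause larvae, 14.4-fold higher, and rps-4, with 27266 in developing and 1934 in diapause larvae, 14.1-fold higher. At the low end, rps-27 (CE19904), which encodes a zinc-finger protein, had an RPF signal of 11963 in developing and 1324 in diapause larvae, 9.04-fold higher. rps-19 (CE13265), the counterpart of a human gene mutated in Diamond-Blackfan anaemia, had 22886 in developing and 2455 in diapause larvae, 9.32-fold higher, and rps-26 (CE16012), for a protein at the mRNA exit, had 15806 in developing and 1688 in diapause larvae, 9.37-fold higher. The mRNA signal of rps-19 was 40949.8 in developing and 18071 in diapause larvae. The lowest small subunit RPF change thus equalled the lowest of the large subunit to 2 decimals of log2.

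Across the genes of a subunit, the height of the mRNA change did not follow that of the RPF change. Pearson's r between them was -0.09 over the 26 large and -0.21 over the 20 small subunit genes, while over all 12115 well-expressed transcripts it was 0.89. These are correlations across genes, which share libraries and size factors and are not independent replicates. The 46 members cover 1.00 log2 units in mRNA change and 0.84 in RPF change, while all well-expressed transcripts cover 15.7 log2 units in mRNA change and 19.8 in RPF change. The members were chosen on footprint values, and a set chosen so, with a narrow range, can have a low r by that choice. Nothing is therefore read from their r against that of all transcripts.

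**Figure D2:**
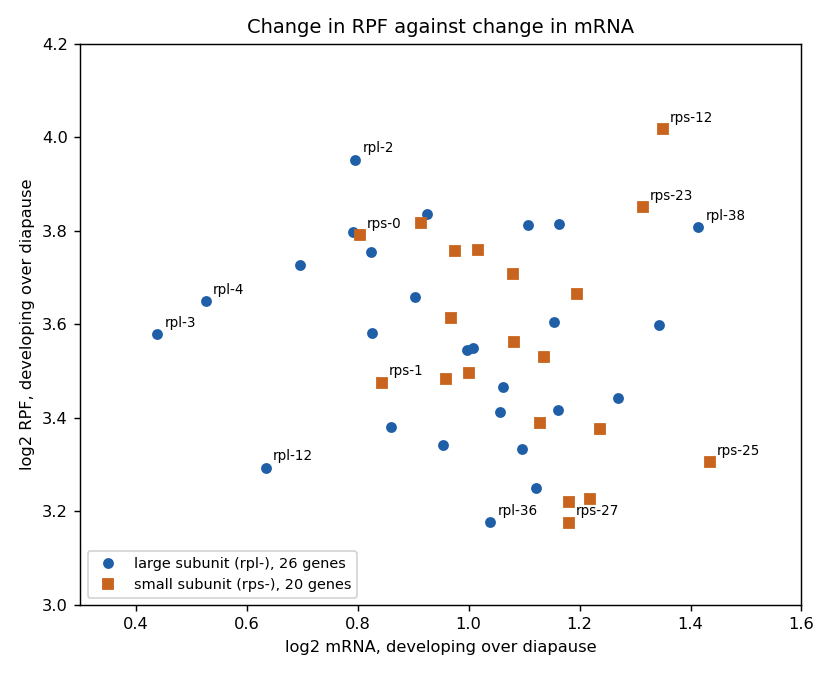
Change in RPF against change in mRNA for each gene, both as log2 of developing over diapause mean signal, with large subunit genes as blue circles and small subunit genes as orange squares. The axes do not start at 0. The points form no line in either subunit (r = -0.09 for the large and -0.21 for the small), and rpl-3, rpl-4 and rpl-12 lie to the left of all small subunit genes. The genes were chosen on footprint values and cover a narrow range, so r is a description only.

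Translation efficiency (TE), the ratio of RPF to mRNA signal, takes out the mRNA level and the length of the coding sequence. Because the mRNA and RPF values had been normalized apart, TE is given as log2 relative to the median of the 12115 well-expressed transcripts in the same state. In developing larvae both subunits sat at that median, with 0.03 for the large (-0.62 to 0.56, SD over genes 0.30) and -0.04 for the small subunit (-1.16 to 0.31, SD 0.39). The side of 0 on which they fell depended on the minimum signal of the transcripts that set the median, with -0.15 (large) and -0.22 (small) at 200, and 0.24 (large) and 0.17 (small) with none. In diapause larvae both lay far below it, at -2.59 for the large (-3.12 to -2.08, SD 0.29) and -2.63 for the small subunit (-3.63 to -1.87, SD 0.45), which is 6.004-fold and 6.20-fold under the median transcript. The median member stood at the 51.6 percentile (large) and the 48.1 percentile (small) of well-expressed transcripts in developing larvae, and at the 1.51 percentile (large) and the 1.37 percentile (small) in diapause larvae. The subunits' medians differed by 0.07 in developing and 0.05 in diapause larvae, large minus small, both well under the SD between genes. In developing larvae this difference was 0.17 by means over genes, and -0.062 when rla-1, W01D2.1 and rpa-0, ribosomal proteins under other symbols, were added to the large subunit. That set left out ubq-2, whose product includes a large subunit protein and whose log2 TE in developing larvae was 0.10. The value of -0.062 thus depends on which genes are added. No member of either subunit was above the 3.67 percentile in diapause larvae. RPF signal is the numerator of TE and was used to choose the members, so these places among all transcripts are a description.

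**Figure D3:**
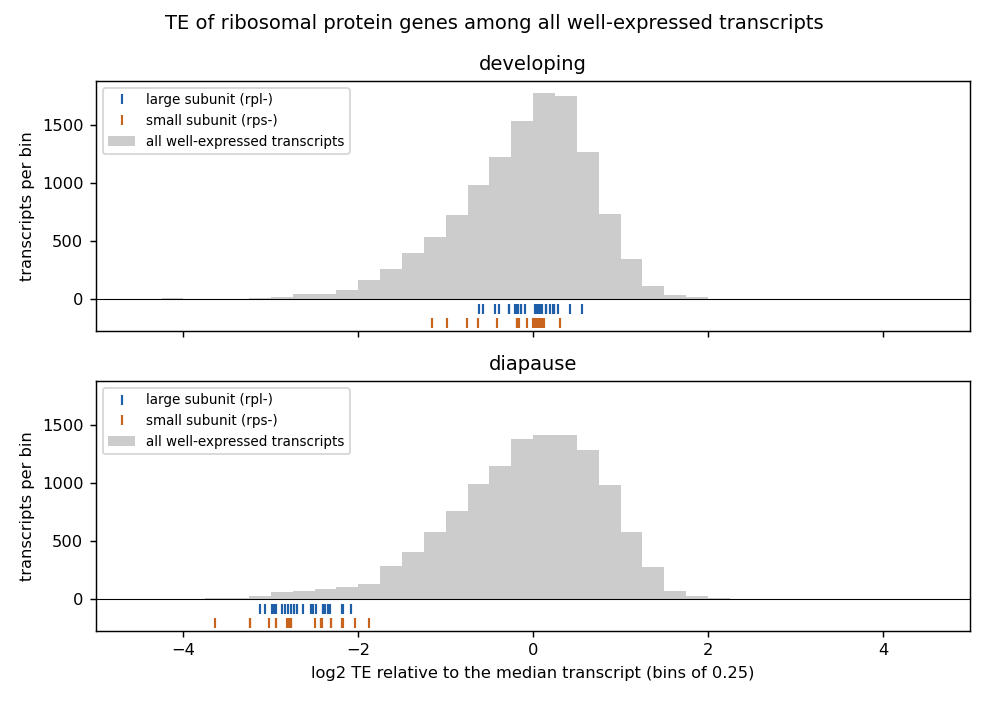
Distribution of log2 TE relative to the median transcript over all well-expressed transcripts (grey bars, in bins of 0.25) in developing larvae above and diapause larvae below. Ticks under the axis are the large subunit genes (blue) and small subunit genes (orange), which were chosen on footprint values of these larvae. Both rows of ticks sit at the middle of the distribution in developing larvae (medians 0.03 and -0.04) and in its lower tail in diapause larvae (medians -2.59 and -2.63).

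In developing larvae, the highest TE of the large subunit was that of rpl-21 (CE00078), with an RPF signal of 25491 in developing and 2019 in diapause larvae and an mRNA signal of 27692 in developing and 14802 in diapause larvae. Its log2 TE was 0.56 in developing and -2.18 in diapause larvae. rpl-20 (CE21392) was next, with an RPF signal of 23285 in developing and 2237 in diapause larvae, an mRNA signal of 27825 in developing and 15338 in diapause larvae, and a log2 TE of 0.42 in developing and -2.08 in diapause larvae (the highest of the large subunit without food). Both genes were thus high among their subunit with and without food. rpl-24.1 (CE09047), whose product reaches across to the small subunit, was the third of the large subunit in diapause larvae at -2.19, with an RPF signal of 22029 in developing and 2068 in diapause larvae, and rpl-7 was the third in developing larvae at 0.28, with an RPF signal of 32098 in developing and 2424 in diapause larvae. The mRNA signal of rpl-24.1 was 31855 in developing and 15315 in diapause larvae.

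The large subunit genes lowest in TE differed between the states. In developing larvae they were rpl-31 (CE20168), for a protein at the rim of the exit tunnel, at -0.62, rpl-23 at -0.58 and rpl-14 (CE19677) at -0.43. The RPF signal was 10959 in developing and 1087 in diapause larvae for rpl-31 and 18736 in developing and 1724 in diapause larvae for rpl-23. For rpl-14 it was 16872 in developing and 1201 in diapause larvae, with an mRNA signal of 36536 in developing and 16969.5 in diapause larvae. In diapause larvae the lowest were rpl-14 at -3.12, rpl-3 at -3.06 and rpl-2 at -2.99, which places rpl-14 8.71-fold, rpl-3 8.35-fold and rpl-2 7.94-fold below the median transcript. Only rpl-14 was in both sets of 3. In developing larvae, rpl-3 and rpl-2 stood at 0.06 and 0.15, above their subunit's median. The RPF signal of rpl-3 was 43139 in developing and 3608 in diapause larvae, and the mRNA signal of rpl-31 was 26937 in developing and 12598 in diapause larvae.

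In the small subunit a few genes stood well below the rest in developing larvae, while in diapause larvae only rps-12 stood apart. In developing larvae the lowest log2 TE was -1.16 for rps-25, then -0.98 for rps-12 and -0.76 for rps-8 (CE04561). In diapause larvae it was -3.63 for rps-12, the lowest of all 46 genes and 12.4-fold below the median transcript, then -3.24 for rps-14 (CE00821), whose product lies on the platform, and -3.24 for rps-8. In developing larvae, rps-25, rps-12 and rps-8 were below every large subunit gene, as was rps-14 at -0.63, and in diapause larvae rps-12, rps-14 and rps-8 were. The RPF signal of rps-25 was 16823 in developing and 1702 in diapause larvae. For rps-8 it was 25502 in developing and 2261 in diapause larvae, with an mRNA signal of 69097 in developing and 34541 in diapause larvae. For rps-14 the RPF signal was 20056 in developing and 1535 in diapause larvae and the mRNA signal 49657 in developing and 23488 in diapause larvae.

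The small subunit also held the highest TE of all members in diapause larvae, -1.87 for rps-27, which is 3.66-fold below the median transcript. Next were rps-24 (CE40119) at -2.04 and rps-26 at -2.18. For rps-24 the RPF signal was 23923 in developing and 2304 in diapause larvae and the mRNA signal 36210.1 in developing and 15368 in diapause larvae. The mRNA signal was 17839 in developing and 7871 in diapause larvae for rps-27. For rps-26 it was 28829 in developing and 12380.5 in diapause larvae. The small subunit thus reached both above and below the large subunit in diapause larvae, with 2 genes above and 3 below the large subunit's range. In developing larvae its highest were rps-7 (CE06577) at 0.31, rps-4 at 0.12 and rps-27 at 0.11, and no small subunit gene lay above the large subunit's range. The RPF signal of rps-7 was 29408 in developing and 2173 in diapause larvae, with an mRNA signal of 38068 in developing and 18819 in diapause larvae.

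**Figure D4:**
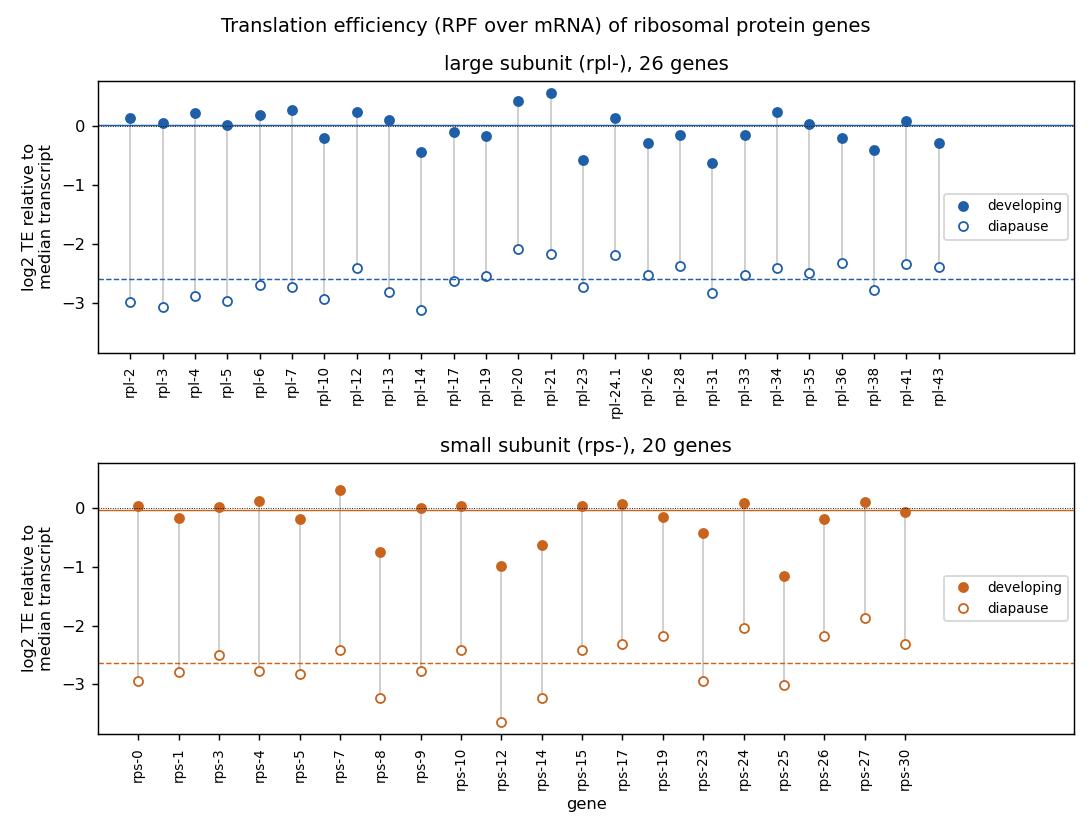
Log2 TE relative to the median transcript for each gene in developing larvae (filled circles) and diapause larvae (open circles), with the large subunit above and the small subunit below. Solid and dashed lines are the subunit's medians in developing and diapause larvae, and the dotted line at 0 is the median transcript. Every open circle lies below its filled circle, and rps-12, rps-8, rps-14 and rps-25 stand below the other small subunit genes in developing larvae.

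The change in TE was nearly the same for the subunits in the median and differed in which genes led it. The median log2 change in TE, RPF change less mRNA change, was 2.54 for the large (2.13 to 3.16, SD over genes 0.33) and 2.51 for the small subunit (1.87 to 2.99, SD 0.32), a difference of 0.03, beside a median of -0.06 over all well-expressed transcripts. By means over genes in place of medians, the difference was 0.14, still under the SD of either subunit. All 46 genes had a TE over 2-fold higher in developing larvae, where 5.57% of well-expressed transcripts did, and none was over 10-fold higher, where 0.173% were. No member had a TE over 2-fold higher in diapause larvae, where 3.06% did. TE shares its footprints with the values that chose the members, so these counts too are a description. As a share of each gene's log2 RPF change, the TE change made up a median of 71.5% for the large (62.7% to 87.8%) and 68.7% for the small subunit (56.6% to 78.8%).

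Of the 46 genes, the 5 with the highest change in TE were all of the large subunit, and 4 small subunit genes lay below every large subunit gene. At the top were rpl-2, 8.92-fold higher in developing larvae, rpl-3, 8.82-fold, and rpl-4, 8.72-fold, with rpl-7 at 8.17-fold and rpl-5 at 8.03-fold behind them. These 5 are the same genes that, with rpl-12, had the lowest mRNA changes, and mRNA change enters the TE change with a minus sign. For rpl-4 the RPF signal was 35255 in developing and 2809 in diapause larvae, and for rpl-5 it was 26682 in developing and 1919 in diapause larvae. At the low end of the large subunit were rpl-43 at 4.37-fold, rpl-36 at 4.40-fold and rpl-23 at 4.51-fold. The mRNA signal was 31304 in developing and 14389 in diapause larvae for rpl-43. For rpl-36 it was 26929.5 in developing and 13106 in diapause larvae.

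In the small subunit the highest changes in TE were those of rps-0 at 7.93-fold, rps-4 at 7.48-fold and rps-9 (CE05849) at 6.88-fold. The RPF signal of rps-0 was 26982 in developing and 1949 in diapause larvae. For rps-9 it was 27212 in developing and 2012 in diapause larvae, with an mRNA signal of 43748 in developing and 22238 in diapause larvae. The lowest were rps-25 at 3.66-fold, rps-27 at 3.99-fold and rps-26 at 4.02-fold, and the fourth gene below the large subunit's range was rps-19 at 4.11-fold. In rps-25, with the highest mRNA change of all 46 genes, the TE change was 56.6% of the log2 RPF change, the lowest share of any member, and in rpl-3, with the lowest mRNA change, it was 87.8%, the highest. The median fell midway between rpl-17 (CE22195) at 5.85-fold and rpl-35 (CE00450) at 5.82-fold in the large subunit, both of the exit tunnel and its rim, and between rps-3 (CE01810), at the mRNA entry, at 5.76-fold and rps-8 at 5.64-fold in the small subunit. The RPF signal was 19066 in developing and 1632 in diapause larvae for rpl-17, with an mRNA signal of 32725 in developing and 16401 in diapause larvae. For rpl-35 it was 16923 in developing and 1446 in diapause larvae, with an mRNA signal of 26434 in developing and 13143 in diapause larvae. For rps-3 it was 29634 in developing and 2648 in diapause larvae, with an mRNA signal of 47212 in developing and 24294 in diapause larvae.

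**Figure D5:**
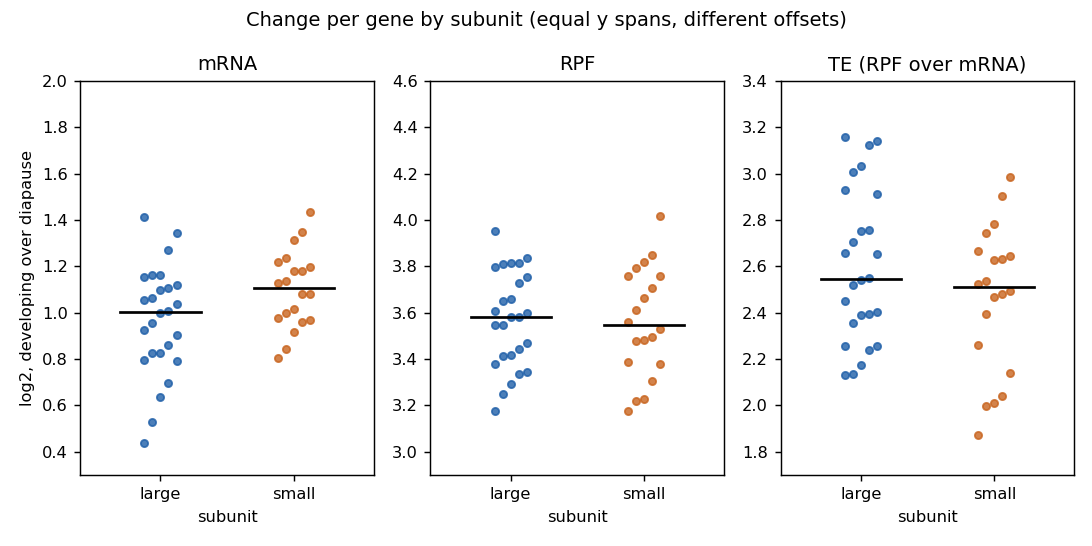
Change of each gene as log2 of developing over diapause, for mRNA, RPF and TE, with large subunit genes (blue, left) and small subunit genes (orange, right). Black bars are medians, and the panels have equal spans but different offsets. The bars lie at 1.00 and 1.10 for mRNA, 3.58 and 3.55 for RPF, and 2.54 and 2.51 for TE, and the large subunit reaches lower in mRNA and higher in TE.

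The evenness of the genes within a subunit depended on what was compared. The large subunit was the more spread in mRNA change, with an SD over genes 1.41 times that of the small subunit, and in RPF change the ratio was 0.883. With rpl-16 and rpl-24.2, which the study listed elsewhere, counted in the large subunit, these ratios were 2.91 in mRNA change and 2.66 in RPF change, so that the order in RPF change turned round. Both genes had been listed for falling mRNA and rising RPF, so these ratios depend on how the added genes were chosen. The small subunit was the more spread in TE, where the large subunit's SD was 0.752 times the small subunit's in developing and 0.643 times in diapause larvae. In developing larvae the order turned round by the interquartile range scaled to an SD, with a ratio of 1.31 in place of 0.752, but it held without the highest and lowest gene of each subunit, with a ratio of 0.797. In TE change the SDs were about equal, with a ratio of 1.04.

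The spread of signal over the genes of a subunit was also compared between the states. Signal holds the coding length of each gene, which is the same in both states but does not cancel from these spreads. The members were also chosen on footprint levels, and the part of that choice in the spread of RPF signal was not tested. The SD of log2 mRNA signal over the large subunit genes was 0.45 in developing and 0.62 in diapause larvae, and over the small subunit genes it was 0.46 in developing and 0.50 in diapause larvae. For RPF signal it was 0.54 in developing and 0.50 in diapause larvae for the large, and 0.43 in developing and 0.44 in diapause larvae for the small subunit. The mRNAs of the large subunit were thus the ones closer together in signal in developing than in diapause larvae, by more than in any of the other 3 sets. The order of the genes was kept, with r between log2 signals in developing and diapause larvae of 0.95 (large) and 0.94 (small) for mRNA, and 0.92 (large) and 0.85 (small) for RPF, where the signals of both states hold the same coding length.

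In the large subunit, genes with more mRNA signal had the lower mRNA change. Pearson's r between the mean log2 mRNA signal over both states and the log2 mRNA change was -0.71 over the 26 large and -0.22 over the 20 small subunit genes. Signal is not per length here, so longer coding sequences have more of it, and both axes use the same means. When the members were split at their median of this signal, the 10 large subunit genes in the upper part had a median mRNA change of 0.81 and the 13 small subunit genes there one of 1.00. In the lower part, the 16 large subunit genes had 1.079 and the 7 small subunit genes 1.18. The small subunit was the higher in both parts. TE in diapause larvae was lower in genes with more mRNA signal in both subunits, with r = -0.65 (large) and -0.62 (small), where mRNA signal is also the denominator of TE. In TE, genes kept their place between the states more closely in the small subunit, with r = 0.73 against 0.37 in the large and 0.71 over all well-expressed transcripts. These are descriptions across genes, with no test of the difference.

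Summed over their genes, both subunits took a far larger share of RPF signal in developing than in diapause larvae, by nearly the same factor. Their share of mRNA signal was larger too, by a smaller factor. The paper describes no step that keeps a read from being counted for several coding sequences that overlap in the genome. Shares of summed signal therefore need not equal shares of reads. The large subunit genes held 6.09% of all RPF signal in developing and 0.691% in diapause larvae, an 8.82-fold larger share, and the small subunit genes held 4.65% in developing and 0.535% in diapause larvae, 8.70-fold. In mRNA, the large subunit genes held 6.22% in developing and 3.67% in diapause larvae, 1.70-fold, and the small subunit genes 5.48% in developing and 2.84% in diapause larvae, 1.93-fold. The ratio of the summed large to the summed small subunit signal was 1.31 in developing and 1.29 in diapause larvae for RPF, and 1.14 in developing and 1.29 in diapause larvae for mRNA. The ratio was thus nearly the same in the footprints of both states and in diapause mRNA, and lower in developing mRNA. These ratios are over listed members of unequal number and unknown length, so their size has no meaning for the ribosome's makeup, and only their difference between states is compared. Without values per library, the error of these sums is not known.

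By position in the ribosome, taken from structures in other eukaryotes, the groups of several genes in each subunit overlapped in their change in TE. The 6 genes of the exit tunnel and its rim, rpl-4, rpl-17, rpl-19, rpl-26, rpl-31 and rpl-35, had a median log2 change in TE of 2.46 (2.24 to 3.12). The bridge proteins between the subunits, rpl-19 (counted in both of these groups) and rpl-24.1, had 2.39 and 2.36. rpl-10, for a protein that joins the large subunit late in its assembly, had 2.76. In the small subunit, 4 genes of the decoding centre and mRNA channel, rps-3, rps-15, rps-23 and rps-30, had a median of 2.50 (2.26 to 2.54). The 7 genes of the head, rps-5, rps-10, rps-12, rps-15, rps-17, rps-19 and rps-25, had 2.47 (1.87 to 2.67). The 4 genes of the platform and mRNA exit, rps-0, rps-1, rps-14 and rps-26, had 2.63 (2.01 to 2.99), and the 6 genes of the body, rps-4, rps-7, rps-8, rps-9, rps-24 and rps-27, had 2.62 (2.00 to 2.90). Of the 4 small subunit groups, that of the decoding centre and channel spanned the narrowest range, with rps-15 counted in both of its groups. The members not given with full values were rpl-10, rpl-13, rpl-19, rpl-26, rpl-33, rpl-41, rps-5, rps-10, rps-15, rps-17 and rps-30. None of these was among the 3 highest or 3 lowest of its subunit in any change or in TE in either state.

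For rla-1, W01D2.1, ubq-2 and rpa-0, ribosomal protein genes that the same list holds under other symbols, values were inside or near the ranges of the members. rla-1 (CE26658), an acidic stalk protein, had an RPF signal of 19748 in developing and 1418 in diapause larvae and an mRNA signal of 34374 in developing and 13071 in diapause larvae, and its log2 change in TE was 2.41. W01D2.1 (CE18312), annotated as ribosomal protein L37, had an RPF signal of 11707 in developing and 1184 in diapause larvae and a log2 change in TE of 1.95, below the large subunit's range. ubq-2 (CE15495), which encodes ubiquitin fused to a large subunit protein, had an RPF signal of 22758 in developing and 2433 in diapause larvae and a change of 2.05, also below it. rpa-0 (CE09655), for the acidic stalk protein P0, had an RPF signal of 27898 in developing and 1888 in diapause larvae, a change of 2.91 and a log2 TE in diapause larvae of -3.71, lower than that of any of the 46 members. Over all 24 identifiers of the list under other symbols, the median log2 change in TE was 1.88 (0.61 to 3.57) and the median log2 TE in diapause larvae -1.13, against 2.53 and -2.59 over the 46 members.

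The rpl- symbols that the study listed elsewhere, among genes whose footprint and mRNA changes it classed as discordant, were rpl-16 and rpl-24.2. The mRNA signal of rpl-16 (CE01031) was 1971 in developing and 3607 in diapause larvae, and its RPF signal was 555 in developing and 328 in diapause larvae. The mRNA signal of rpl-24.2 (CE05202) was 2037 in developing and 2782 in diapause larvae, and its RPF signal was 1415 in developing and 334 in diapause larvae. Both had less mRNA in developing than in diapause larvae, unlike all 46 members, and were listed for that fall together with a rise in RPF. Their log2 TE in diapause larvae, -2.76 for rpl-16 and -2.36 for rpl-24.2, was inside the large subunit's range. In developing larvae the log2 TE of rpl-16, -1.15, was below that range, as was its log2 change in TE, 1.63, while rpl-24.2 was inside it in both, at 0.16 and 2.53.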

How the data were processed

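mRNA-seq and ribosome profiling of C. elegans L1 larvae, with 3 libraries per state and assay, were analysed from the means that the authors deposited. The authors trimmed reads of adaptor, mapped them with Bowtie 0.12.7 to the WS230 genome and to coding sequences with 18 bases of flank, dropped reads that matched more than 1 genomic place and added up the rest for each coding sequence, so genes with near-identical copies lose reads. The signal values the authors deposited are means over the libraries of a state of reads divided by DESeq size factors, separately for mRNA and RPF. The variance ratio the authors deposited is the observed over the fitted variance between the libraries of a state. Columns of the authors' own comparison (fold changes, p-values and adjusted p-values) were not used, nor were the other 6 of the 8 deposited tables, which hold other species.

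The columns name the states by letters only. They were read as developing and diapause from the study's lists of identifiers by direction. In RPF, 1576 of 1576 identifiers listed as higher in developing larvae, and 569 of 569 listed as higher in diapause larvae, went that way. In mRNA, 52 of 52 identifiers listed with increased mRNA, and 130 of 130 listed with decreased mRNA, did so too.

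Computed here with Python 3.11.15, pandas 2.3.3 and numpy 2.4.6 were log2 ratios of means with a pseudocount of 0, TE relative to the median of transcripts with a mean signal of at least 50 in both assays, and medians, ranges, SDs over genes, shares and counts. Scripts were tested on simulated data. Of 46 symbols, 45 were in the reference name table. The reference at hand gave no coding lengths or sequences for these identifiers, so levels per codon were not computed, and wherever signals are set against each other across genes they include coding length. No test was run, since tests need values per library, and the depth per library was not analysed here. Named in full are the 3 highest and 3 lowest genes of each subunit in each measure, and the genes nearest the median TE change. The members, role groups and lists were chosen with earlier results of these data known. Alternatives tried were other averages, shares of summed signal, other minimums and fold limits, and added genes.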

Additional observations from a re-analysis of the deposited data

How the results depend on the processing

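Of 190 alternative values of 47 results, 158 stayed within 0.1 log2 units (within 1.5 times for counts, shares and SDs), 25 moved further and 7 changed direction. Some of the 158 were fixed in advance. Shares of summed signal and other minimums shift both subunits alike and leave their difference unchanged. Genes added to the large subunit leave the small subunit's values unchanged. The count is thus no measure of robustness. Log2 TE in developing larvae for the large subunit was 0.03, but -0.028 by the mean over genes, -0.10 with rla-1, W01D2.1 and rpa-0 added, -0.15 with a minimum signal of 200 and 0.24 with no minimum. For the small subunit it was -0.04, but -0.20 by the mean, -0.22 with a minimum of 200 and 0.17 with none. The difference of the subunits there, 0.07, was 0.17 by means and -0.062 with the added genes, which did not include ubq-2. In diapause larvae, log2 TE was -2.33 for the large and -2.38 for the small subunit as a ratio of shares of summed signal, -2.74 and -2.78 with a minimum of 200, and -2.39 and -2.44 with none.

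With signals taken as shares of the summed signal, the median log2 changes were 0.86 (large) and 0.97 (small) for mRNA, 3.14 and 3.10 for RPF, and 2.24 and 2.21 for TE. By means, the TE changes of the subunits differed by 0.14. In evenness, the scaled interquartile range gave 0.218 for the small subunit's TE in developing larvae, and 1.31 for large over small. With rpl-16 and rpl-24.2 added, the large subunit's SD was 0.488 in mRNA change and 0.624 in RPF change, which is 2.91 times (mRNA) and 2.66 times (RPF, against 0.883 without them) that of the small subunit. Both genes had been listed for falling mRNA and rising RPF, and were added to the large subunit only. Counts of genes with higher mRNA in developing larvae were 24 (large) at 1.5-fold, and 0 (large) and 0 (small) at 4-fold. With no minimum signal, 9.50% of transcripts had a TE over 2-fold higher in developing larvae.

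No paired analysis was possible because the values are means over the libraries of a state. Leaving out a library in turn was not run, for the same reason. Levels per codon, and alternatives that need coding lengths, were not run.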
